A study of Canis lupus familiaris with 10 samples.

Results

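The diffuse large B-cell lymphoma line CLBL-1, established from a dog, was compared after exposure to a selective inhibitor of PRMT5 with control cells of the same line. The comparison holds the 5 CLBL-1 arrays out of 10 arrays of the series, chosen by their labels: 3 control arrays and 2 arrays of cells treated with 100 nM of the inhibitor, which the labels call PR220 and the study calls C220. All CLBL-1 cells were collected on day 2. The labels give the control only as such and name no vehicle. The study dissolved the inhibitor in DMSO and names a DMSO control for its qRT-PCR of CLBL-1. The labels do not say whether replicates were separate cultures. The study describes biological triplicate experiments, of which 2 treated CLBL-1 arrays were analysed here. The p-values speak for the spread between these arrays alone. Each array gave RMA log2 expression levels for 32391 probe sets. The other 5 arrays (2 control and 3 treated) were of the canine B-cell lymphoma line 17-71 after 4 days at the same dose. Both are established lines with lymph node as their labelled source.

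PRMT5 is the main enzyme that places symmetric dimethyl marks on arginine residues. It works in a complex with WDR77, and adaptor proteins such as CLNS1A and RIOK1 bring it different substrates. Its known substrates include histone tails, where the marks go with repression of transcription, and the Sm proteins of the spliceosome, whose methylation helps their assembly onto small nuclear RNAs. The inhibitor acts on the activity of the enzyme, so the mRNA of PRMT5 is no measure of how far it was inhibited.

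The 5 arrays were alike as wholes. Pearson's r over all probe sets was 0.992 to 0.993 in the 3 control pairs, 0.992 in the treated pair and 0.99 to 0.991 between treated and control arrays, as a description. As a reading of the labelled cell type, 8 of the 10 listed B cell markers were measured, and all 8 lay above the median probe set (3.72), between 7.57 for BLK and 12.03 for MS4A1 (CD20) in control. Their summed level was 71.4 to 72.5 in control and 70.2 to 70.5 in treated arrays, which did not overlap. Their log2 changes ran from -0.67 for CD79A to 0.06 for PAX5, so the markers did not fall alike. CLBL-1 is an established line, and each array read the RNA of its cells together. A lower level in every cell and a change in part of the cells cannot be told apart. Of 8 T and NK cell markers 3 lay above the median probe set, with CD3G at 8.96, CD3D at 6.83 and CD2 at 4.89, while CD3E was at 1.83. LYZ, at 11.13, was the one myeloid marker of 7 above it, and CD14 (3.36), CD163 (2.37) and MPO (3.05) were below. For stromal, endothelial and epithelial cells 1 of 5 markers was above (COL1A1, 4.47).

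At a Benjamini-Hochberg adjusted p below 0.05 over all probe sets (limma), 43 probe sets or 0.133% changed. Of these 40 were lower (0.123%) and 3 were higher (0.00926%) in treated cells. Single gene symbols belonged to 32 of them, 29 lower and 3 higher, while 3 carried several symbols and 8 were unnamed here. The 43 hold 41 distinct measurements, since 3 unnamed falls have identical values. In all 43 the treated arrays lay outside the range of the control arrays. They were chosen by small p on these same arrays, so the separation, here and for single genes below, is no further support. Over the 15947 genes measured, 20% had both treated arrays above all controls and 18.5% had both below. The test rested on 3 residual degrees of freedom, and without control replicate 1, 2 or 3 or treated replicate 1 or 2, left out singly, the count was 0, with the smallest adjusted p between 0.179 and 0.299. The 43 changes kept their sign in each of those 5 fits. Those fits reuse arrays on which the 43 were chosen, so the kept sign is no independent support. Letting the variance follow the level of the probe set with robust variances gave 1310 calls, 555 of them higher, among which were the 32 genes named next.

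**Figure D1:**
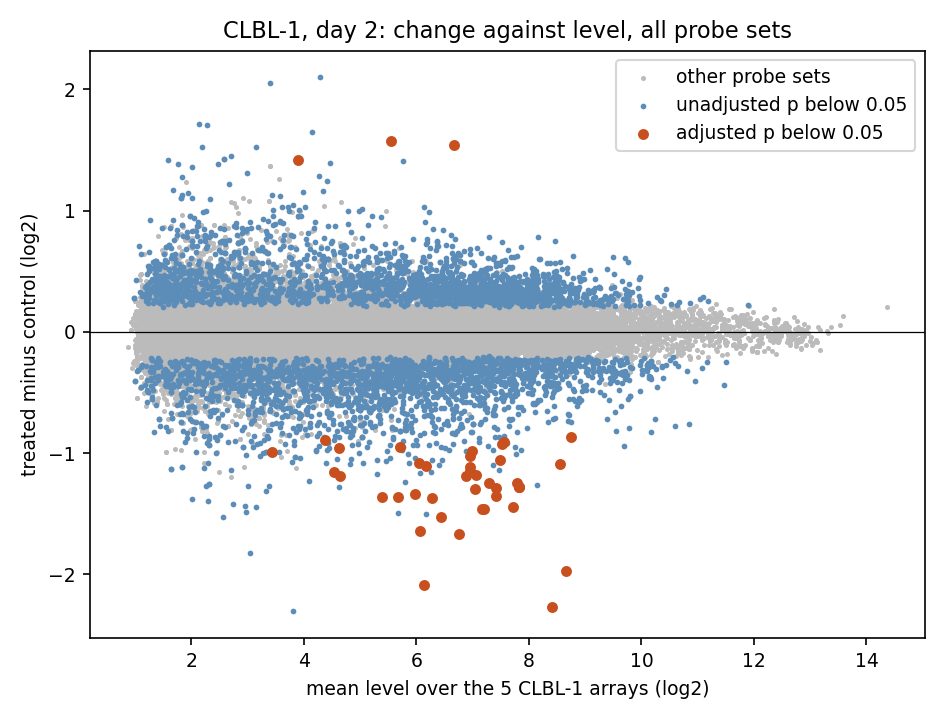
Change in CLBL-1 (treated minus control, log2) against the mean level over the 5 arrays (log2) for all 32391 probe sets. The 43 probe sets past the adjusted threshold (orange) have 40 falls and 3 rises, and 1 of the falls is below the median level of 3.72.

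The falls are given by the known role of each gene, with no test of any role as a theme. A fall of a list member here is a call at the adjusted threshold, which 29 of all 15947 genes met. Of 46 measured genes on the endolysosomal list 3 fell, CYB561A3, PLD4 and GPR108. CYB561A3, a reductase of the lysosomal membrane in the cytochrome b561 family, read 9.33, 9.35 and 9.26 in the control arrays and 7.06 and 7.04 in the treated arrays (a log2 change of -2.27 with SE 0.084, adjusted p = 0.0146). The treated values sat more than 2 log2 units under all controls, and the change stayed between -2.30 and -2.25 as single arrays were left out. PLD4, an endolysosomal nuclease that trims single-stranded nucleic acid, read 7.44, 7.24 and 7.58 in control and 5.74 and 5.77 in treated cells (a log2 change of -1.66 with SE 0.122, adjusted p = 0.0332). GPR108, a membrane protein of the secretory pathway, read 6.51, 6.48 and 6.52 in control and 5.17 and 5.17 in treated cells, a pair of nearly equal values (a log2 change of -1.34 with SE 0.0803, adjusted p = 0.0332). The groups of neither gene overlapped. Outside that list, MFSD12, a lysosomal cysteine transporter, fell 2.28-fold (adjusted p = 0.0439) from a control level of 5.12. TMEM175, an ion channel of the lysosomal membrane, fell 2.03-fold (adjusted p = 0.0438), and AP1G2, a gamma subunit of the AP-1 type of clathrin adaptor, fell from 6.61 to 5.50 (adjusted p = 0.0342).

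On the list of nucleic acid sensing and clearance 2 of 29 measured genes fell, STING1 and RNASEH2C. STING1, the adaptor through which cytosolic DNA triggers interferon, read 6.34, 6.17 and 6.12 in control cells and 4.83 and 4.87 in treated cells (a log2 change of -1.36 with SE 0.102, adjusted p = 0.0332). RNASEH2C, a subunit of the enzyme that cuts RNA in RNA-DNA hybrids, read 7.13, 6.95 and 7.04 in control and 5.46 and 5.56 under treatment (a log2 change of -1.53 with SE 0.0964, adjusted p = 0.0332). For each gene the closest treated and control arrays were more than 1 log2 unit apart. Not on that list, ITPA, which clears inosine triphosphate and related bases from the nucleotide pool, fell 2.44-fold (log2 change -1.29 with SE 0.0846, adjusted p = 0.0332). POLR3C, a subunit of RNA polymerase III, fell 1.9-fold (log2 change -0.93 with SE 0.0841, adjusted p = 0.0485).

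Of the lists of tryptophan breakdown, the citric acid cycle and side-route sugar enzymes, 1 member each fell: AFMID, IDH3G and IDNK. AFMID, the formamidase that yields kynurenine from tryptophan, read 6.99, 6.85 and 7.05 in control and 4.74 and 5.01 in treated cells, with a wider gap between the treated arrays than for most calls (a log2 change of -2.09 with SE 0.123, adjusted p = 0.0332). IDH3G, a regulatory subunit of the NAD-dependent isocitrate dehydrogenase of the citric acid cycle, read 8.25, 8.28 and 8.35 in control and 6.80 and 6.89 under treatment (a log2 change of -1.45 with SE 0.0877, adjusted p = 0.0332). IDNK, a gluconokinase, read 5.83, 5.99 and 5.96 in control and 4.55 and 4.58 under treatment (a log2 change of -1.36 with SE 0.0928, adjusted p = 0.0332). In none of these did the groups overlap.

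The phospholipid and peroxisome lists held 1 fall each at the adjusted threshold, AGPAT1 and CROT. Cholesterol synthesis held 0 such calls, though 18 of its 19 measured genes had a negative change. AGPAT1, which makes phosphatidic acid, read 7.84, 7.63 and 7.75 in control and 6.25 and 6.31 in treated cells (a log2 change of -1.46 with SE 0.0998, adjusted p = 0.0332). HSD17B8, a dehydrogenase of mitochondrial fatty acid synthesis, fell 2.16-fold (adjusted p = 0.0332), and its treated arrays read 6.28 and 6.28. SRD5A3, the polyprenol reductase that makes dolichol for protein glycosylation, fell 2.13-fold from a level of 8.98 (adjusted p = 0.0332). CROT, a peroxisomal carnitine acyltransferase, was nearest to the threshold from inside, with 9.10, 9.07 and 9.11 in control and 8.21 and 8.24 in treated cells (fold 1.83, adjusted p = 0.0485). BLVRB, a biliverdin and flavin reductase, fell 2.22-fold (adjusted p = 0.0438), and SMIM20, an assembly factor of cytochrome c oxidase, fell 2.56-fold (adjusted p = 0.0332).

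Further falls were in signalling, antigen presentation and the cell cycle. DLA-DOA, the alpha chain of the DO protein that restrains peptide loading of MHC class II, read 9.43, 9.47 and 9.46 in control cells. The treated arrays read 7.25 and 7.71, the widest gap within the treated pair among the named falls, and the log2 change ran from -2.20 to -1.74 as single arrays were left out (a log2 change of -1.97 with SE 0.15, adjusted p = 0.0332). PORCN, the acyltransferase that WNT ligands need for secretion, read 6.84, 6.73 and 6.92 in control and 5.50 and 5.41 under treatment, with no overlap (a log2 change of -1.37 with SE 0.0979, adjusted p = 0.0332). PRR11, a gene of cell cycle progression, read 7.82, 7.81 and 7.75 in control and 6.50 and 6.60 under treatment (a log2 change of -1.24 with SE 0.0864, adjusted p = 0.0332). FIBP, which binds acidic fibroblast growth factor, fell 2.28-fold, NFATC2IP, a partner of the NFAT transcription factors, 2.26-fold and the phosphatase PPM1M 2.22-fold, all at adjusted p = 0.0332. TMEM256 fell 3.12-fold (adjusted p = 0.0332), TMEM71 1.93-fold (adjusted p = 0.0485), and the loci that the annotation names LOC484343 and LOC478413 fell 2.38-fold (adjusted p = 0.0429) and 2.08-fold (adjusted p = 0.0374).

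At the adjusted threshold just 3 named genes rose. The skew belongs to that threshold, since 2213 probe sets were higher and 2231 lower at an unadjusted p below 0.05 (limma). PRPF39, a factor of the U1 small nuclear ribonucleoprotein that takes part in choosing 5′ splice sites, read 6.01, 6.12 and 6.04 in control and 7.73 and 7.46 in treated cells (a log2 change of 1.54 with SE 0.112, adjusted p = 0.0332). TMEM178B, a membrane protein, read 4.98, 4.98 and 4.81 in control and 6.59 and 6.40 under treatment (a log2 change of 1.57 with SE 0.108, adjusted p = 0.0332). CFAP53, a protein of motile cilia, started from 3.17, 3.47 and 3.34, near the median probe set, and reached 4.76 and 4.73 (a log2 change of 1.42 with SE 0.114, adjusted p = 0.0345). The treated arrays of each rise lay more than 1 log2 unit above every control array.

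**Figure D2:**
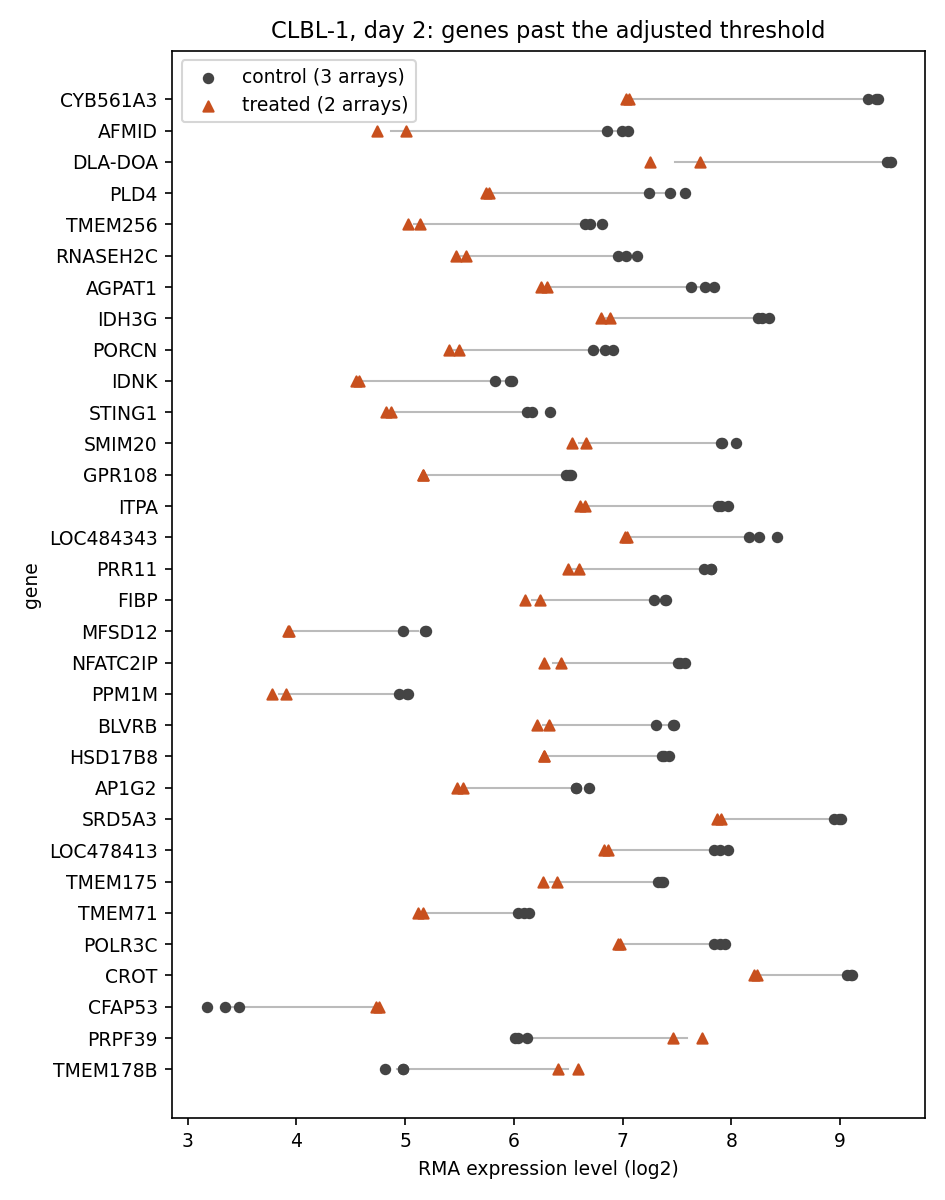
RMA levels (log2) of the 32 single-symbol genes past the adjusted threshold, with 3 control arrays (dots) and 2 treated arrays (triangles) per gene and a line joining the group means. No treated array reaches the control range in any row, and the 3 rises (CFAP53, PRPF39, TMEM178B) stand at the foot.

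Some of these genes are close neighbours. Of the called genes 30 could be placed on the dog assembly UU_Cfam_GSD_1.0 through RefSeq, and 5 pairs lay within 50 protein-coding genes of each other. DLA-DOA and HSD17B8 had 3 coding genes between them and RNASEH2C and FIBP had 9. DLA-DOA and AGPAT1, also of the MHC region, had 25. No share of pairs expected by position was computed, so the spacing is a description.

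A band of genes lay just outside the threshold, and their values are no calls. On the lower side KLHDC3, a substrate receptor of a cullin ubiquitin ligase, read 6.79, 6.86 and 6.78 in control and 5.80 and 5.92 in treated cells (adjusted p = 0.0518), and STXBP2, a partner of syntaxins in granule release, read 7.0, 6.77 and 6.87 in control and 5.82 and 5.83 under treatment (adjusted p = 0.0518). Their groups did not overlap, nor, by the way they were chosen, did those of any gene in this band. CD37, a tetraspanin of B cells, read -0.82 on the log2 scale of change, the Src-family kinase FGR -0.87, the phospholipase PLCB2 -0.91 and the lipid-presenting molecule CD1A -0.79. Enzymes and carriers of lipid and energy metabolism were here too: ACSS2, which makes acetyl-CoA from acetate, changed by -0.79, DGAT1 of triglyceride synthesis by -0.82, the sterol synthesis scaffold ERG28 by -0.94 and the mitochondrial carrier UCP2 by -0.78. TAF15, an RNA-binding protein, read 8.15, 8.29 and 8.29 in control and 7.33 and 7.21 under treatment. ENSA, which restrains the phosphatase PP2A in mitosis, read -1.10, the nucleotidase NT5C -0.90, the ciliary planar polarity gene FUZ -1.15 and the peptidase APEH -1.24. The other members were HGH1 (-0.85), TATDN3 (-1.08), ANTKMT (-1.01), DHRS1 (-0.93) and METTL26 (-0.93), and the adjusted p of the 20 lay between 0.0518 and 0.0571.

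On the higher side the nearest was PTPRM, a receptor tyrosine phosphatase, with 5.73, 5.93 and 5.83 in control and 6.88 and 6.77 in treated cells (adjusted p = 0.0553), and its second probe set read 0.71. KAT8, which acetylates lysine 16 of histone H4, read 7.23, 7.23 and 7.20 in control and 7.98 and 7.94 under treatment (adjusted p = 0.0602). CD274, the checkpoint ligand PD-L1, read 7.65, 7.54 and 7.52 in control and 8.24 and 8.30 under treatment (adjusted p = 0.0759). In all of these genes each treated array exceeded each control array. Several others act on pre-mRNA or in nuclear bodies: PRPF38B (0.78), the splicing kinase PRPF4B (0.62), GEMIN6 of the SMN complex (0.59), USPL1, a SUMO protease of Cajal bodies (0.65), AKAP8L (0.64) and PAXBP1 (0.68). RBKS, the ribokinase, read 0.91, PPM1K, the phosphatase that switches on branched-chain amino acid breakdown, 0.72, and GTPBP10, a GTPase of mitochondrial ribosome assembly, 0.69. INTU and TTLL11, genes of cilia and tubulin modification, read 0.75 and 0.89. CREBZF (0.84), ADAM32 (0.79), ZBTB49 (0.65), FAM126B (0.62), PYROXD1 (0.59) and the sodium channel subunit SCN2B (0.87) made up the 20, whose adjusted p ran from 0.0553 to 0.0929.

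The drug target itself and its partners did not pass. PRMT5 read 8.77, 8.70 and 8.73 in control and 8.53 and 8.39 in treated cells, so its groups were apart by a small step (log2 change -0.27 with SE 0.0904, adjusted p = 0.292). WDR77, its obligate partner, read 7.26, 7.32 and 7.29 in control and 6.84 and 6.74 under treatment (log2 change -0.50 with SE 0.0859, adjusted p = 0.117). CLNS1A, the adaptor that presents Sm proteins, was low on the array, with 2.95, 2.68 and 3.51 in control and 4.09 and 4.01 in treated cells. The 3 control arrays of CLNS1A spread widely, and the treated pair lay above them (adjusted p = 0.195). The adaptor RIOK1 overlapped, with 7.34, 7.33 and 7.11 in control and 7.32 and 7.53 under treatment. For the enzymes that keep the methyl donor cycle going, the change was -0.43 for AHCY, -0.24 for MAT2A, 0.05 for MAT2B, 0.088 for MTAP and -0.095 for SHMT2. Of the other methyltransferases, CARM1 read 8.08, 8.13 and 8.29 in control and 7.87 and 7.77 in treated cells (log2 change -0.34, adjusted p = 0.259). PRMT1, PRMT2, PRMT3, PRMT6, PRMT7 and PRMT8 read between 0.034 and 0.19, and PRMT9 -0.22. With an intensity trend, WDR77, AHCY and MAT2A passed (adjusted p = 0.0109, 0.00896 and 0.0309) and PRMT5 did not (adjusted p = 0.0534). MYC read 7.81, 7.84 and 7.90 in control and 8.02 and 7.95 in treated cells, a small step without overlap (log2 change 0.13, adjusted p = 0.562). By qRT-PCR the study reported the other direction, a lower MYC transcript in CLBL-1 at the same dose and day. It also reported a fall of MYC protein over time, in CLBL-1 at a lower dose. The cause of the difference was not tested.

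Gene lists were described by counts at an unadjusted p below 0.05 and by their median change. Over all 15947 genes 8.3% were higher and 8.68% lower at that level, with a median log2 change of 0.006. After adjustment, the fit whose variances followed the level (the trend fit) called 2.75% of genes higher and 3.56% lower. Most lists had few members below the median level. Among the 9599 genes above that level, 1135 were higher and 1192 lower at the unadjusted level, larger shares than over all genes. A list's count is to be read beside both backgrounds, and no list was tested. The lists were chosen with earlier results of these data known, so the lean of a list is no independent evidence.

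Several classes of splicing factor had more members higher than lower. Of 21 genes of the U2 particle and the SF3 complexes, which recognise the branch point, 21 had a positive change, 11 were higher at the unadjusted level and 0 lower, with a median of 0.24. The trend fit called 10 of them higher, among them the helicase DDX46 (0.57), U2AF1 (0.46), which reads the 3′ splice site, and SF3B1 (0.35). In the tri-snRNP and catalytic factors 34 of 38 were positive, 18 higher and 1 lower at the unadjusted level (median 0.24). The trend fit called 13 of those higher, with DDX23 at 0.57, PRPF4 at 0.55 and the central scaffold PRPF8 at 0.43. The U1 particle and its associated factors had 6 of 13 higher and 0 lower (median 0.23), with PRPF39 the one past the adjusted threshold, and LUC7L3 (0.40) and RBM25 (0.43) after it. SR proteins, which bind exons and recruit the machinery, had 8 of 16 higher and 0 lower (median 0.19; SRSF7 0.37, SRSF11 0.33). The Sm and LSM proteins, which include direct PRMT5 substrates, had 4 of 15 higher and 0 lower (median 0.16; SNRPB 0.32, SNRPD3 0.29). The study drew splicing, and also metabolic processes, peroxisomes, oxidative phosphorylation and DNA repair, as themes from the same arrays, and counts of these lists are no independent evidence of direction.

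Of 23 hnRNP proteins 11 were positive and 12 negative (median -0.0066), with TAF15 at one end (-0.97) and PTBP2, a neuronal relative of PTBP1, at the other (0.74). The minor spliceosome had 1 of 9 higher and 1 lower (median 0.048). Factors that cut and polyadenylate the 3′ end had 1 of 22 higher, WDR33 (0.40), and 5 lower, with the polymerase PAPOLA at -0.36 and CPSF1 at -0.32. Splicing kinases, which phosphorylate SR proteins, had CLK1 at 0.80 and CLK4 at 0.71, and 3 of 10 were higher and 1 lower (DYRK3, -0.25). The exon junction complex and nonsense-mediated decay had 4 of 18 higher and 0 lower, led by PNN (0.57), and mRNA export had 5 of 17 higher and 2 lower, with THOC1 at 0.47 and THOC6 at -0.72.

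Ribosome production in the nucleolus had more genes past the unadjusted level on the higher side than any other list. Of 49 genes 43 were positive, 26 higher and 2 lower at the unadjusted level (median 0.23), and the trend fit called 16 higher and 0 lower. DKC1 and GAR1, parts of the particle that makes pseudouridine, read 0.60 and 0.52, and WDR43 of the small-subunit processome read 0.51. The ribosomal proteins of the cytosol stayed nearer to 0, with 3 of 58 higher and 0 lower (median 0.031), RPL30 being the highest at 0.61. The mitochondrial ribosome had 20 of 71 higher and 5 lower (median 0.13), and its members differed, with MRPS18B at 0.59 and MRPS18C at -0.47.

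**Figure D3:**
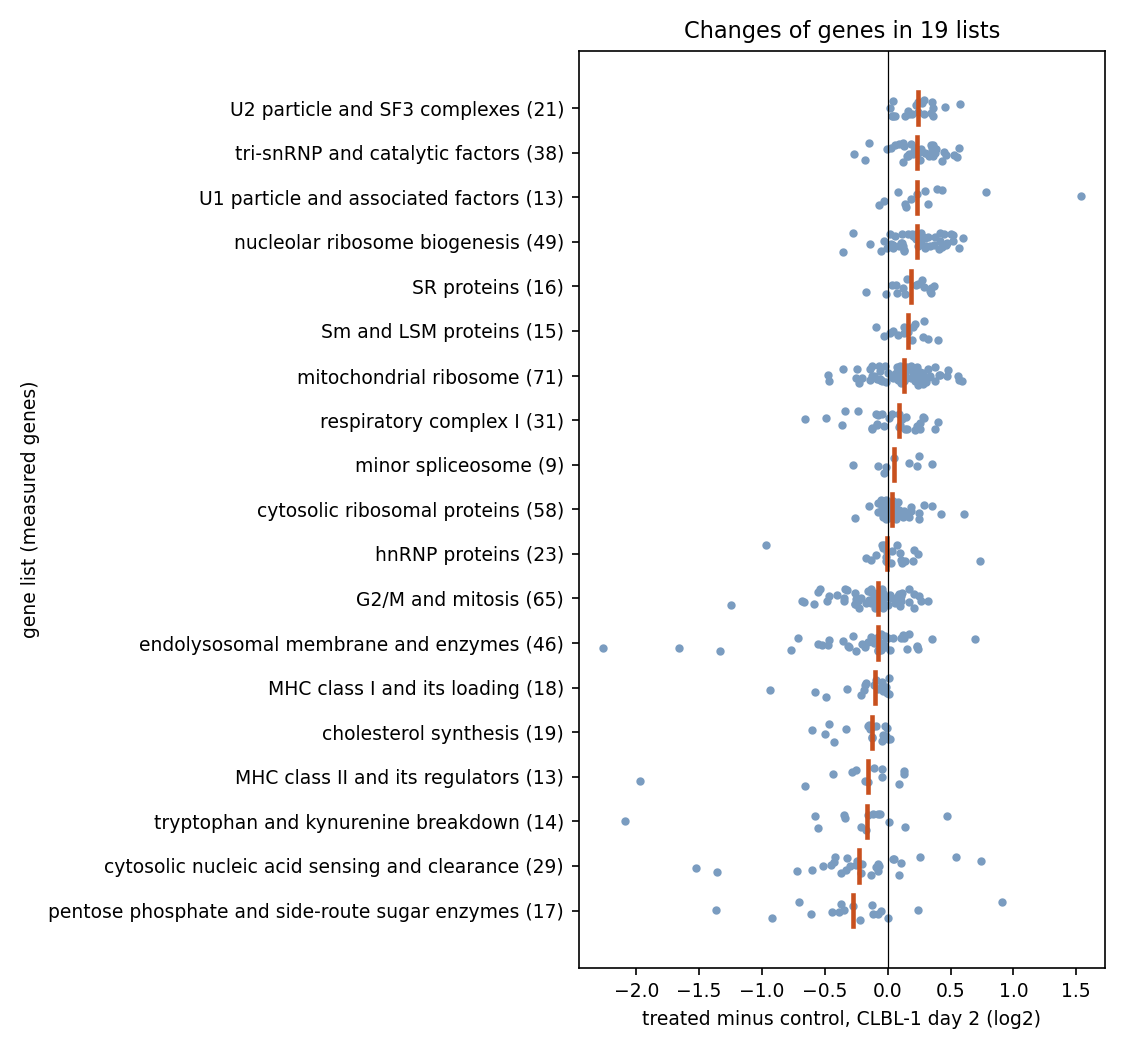
Change in CLBL-1 (treated minus control, log2) of each measured gene (dots) in 19 gene lists, with the median of the list as an orange bar. The U2 particle and SF3 list lies wholly above 0 (median 0.24), while nucleic acid sensing (median -0.23) and side-route sugar enzymes (median -0.28) hold mostly negative values.

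Lists with more members lower than higher at the unadjusted level included some of membranes, antigen presentation and small-molecule metabolism. They were not confined to these, since G2/M and mitosis (16 of 65 lower) and 3′ end processing (5 of 22 lower) leaned the same way. Some of the lists hold called genes, which add to their lean. Of 46 endolysosomal genes 33 were negative, 13 lower and 2 higher (median -0.078). Besides the called genes the lysosomal protease CTSA read -0.71. The V-ATPase, the pump that acidifies the same compartments, had 4 of 16 higher, ATP6V1C1 at 0.47 first, and 0 lower. Nucleic acid sensing and clearance had 13 of 29 lower and 3 higher (median -0.23). There DNASE1L1, a relative of DNase I, read -0.72, while STEEP1, which helps STING1 leave the endoplasmic reticulum, read 0.74. Interferon response genes had 6 of 29 lower and 0 higher, with IFI35 at -0.86 and the transcription factor STAT2 at -0.55. As a whole that list barely moved (median -0.016, 12 positive and 17 negative), and 13 of its genes were below the median level.

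In antigen presentation, MHC class I and its loading machinery had 16 of 18 negative and 4 lower, with the immunoproteasome subunit PSMB10 at -0.93 and the peptide transporter subunit TAP2 at -0.58. The class II list had 5 of 13 lower and 0 higher, and next to DLA-DOA stood its partner DLA-DOB (-0.66) and the lysosomal thiol reductase IFI30 (-0.44). The B cell receptor and its coreceptors had 5 of 26 lower and 0 higher, among them CD37 (-0.82), the signalling chain CD79A (-0.67) and CD22 (-0.31). CD79A read 8.99, 8.96 and 8.97 in control and 8.27 and 8.32 in treated arrays, whereas its partner CD79B overlapped between the groups (-0.046). The lower summed level of the B cell markers given above moves with this list, since CD79A and CD22 belong to both, and the part of either in the other was not tested.

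In metabolism, enzymes of the pentose phosphate route and other side routes of sugar had 7 of 17 lower and 2 higher, with the lowest median of the lists built here (-0.28). GMPPA, a regulator of GDP-mannose synthesis, read -0.92 and SORD, sorbitol dehydrogenase, -0.70, against RBKS at 0.91. The 8 MYC targets that the study chose on these samples had a lower median (-0.46), which is not independent evidence. In tryptophan breakdown 5 of 14 were lower and 0 higher: after AFMID came KMO (-0.58) and HAAO (-0.55), the enzymes downstream of it, and 8 of the list were below the median level. Phospholipid synthesis had 8 of 28 lower and 3 higher, PTDSS2 at -0.67 and choline kinase CHKA at 0.43. Cholesterol synthesis had 5 of 19 lower and 0 higher, with EBP at -0.42 and NSDHL at -0.33. Peroxisomal genes had 7 of 30 lower, the thioesterase ACOT8 (-1.05) and the thiolase ACAA1 (-0.90) after CROT, and 3 higher, among them PEX3 (0.54).

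In the citric acid cycle, respiration and glycolysis members went both ways. The citric acid cycle and its entry enzymes had 4 of 24 higher and 2 lower (median 0.019), with IDH1 (-0.43) beside IDH3G. Complex I had 7 higher and 5 lower of 31, NDUFB7 being lowest at -0.66, and complexes III to V had 3 higher and 1 lower of 20. Glycolysis had 1 higher and 3 lower of 23: ENO2, an enolase isoform, read -1.14 and hexokinase HK2 0.46.

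In the cell cycle, genes of G2/M and mitosis had 16 of 65 lower and 3 higher (median -0.075), with PRR11 past the adjusted threshold. In G1/S and DNA replication 9 of 48 were lower and 4 higher, and subunits of the same polymerase parted, POLE at -0.58 and POLE2 at 0.47. The p53 list had 7 of 28 higher, with TIGAR at 0.47 and the death effector BAX at 0.42, and 1 lower, the damage sensor DDB2 (-0.79).

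The genes that were lower had a shorter median span than those that were higher. The median span of a gene from start to end in RefSeq was 24.2 kb over all genes with a span, 9.47 kb for 27 of the 29 called falls, 16.2 kb for genes lower at the unadjusted level and 29.0 kb for those higher. Among genes above the median level, the share lower in treated cells was 16.5% in the shortest of 5 equal groups (0.288 to 7.72 kb), then 16.2%, 12.7%, 10.5% and 5.97% in the longest. The share higher was 8.19% in the shortest group and 12%, 13.5%, 13.8% and 12.7% in the others. The median change went from -0.04 in the shortest to 0.04 in the longest group. Treated replicate 1 ran from -0.05 to 0.07 and treated replicate 2 from -0.02 to 0.01 between those groups, so the second array showed less of it. The pattern is a description over genes with no test, and what else moves with gene span was not tested.

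**Figure D4:**
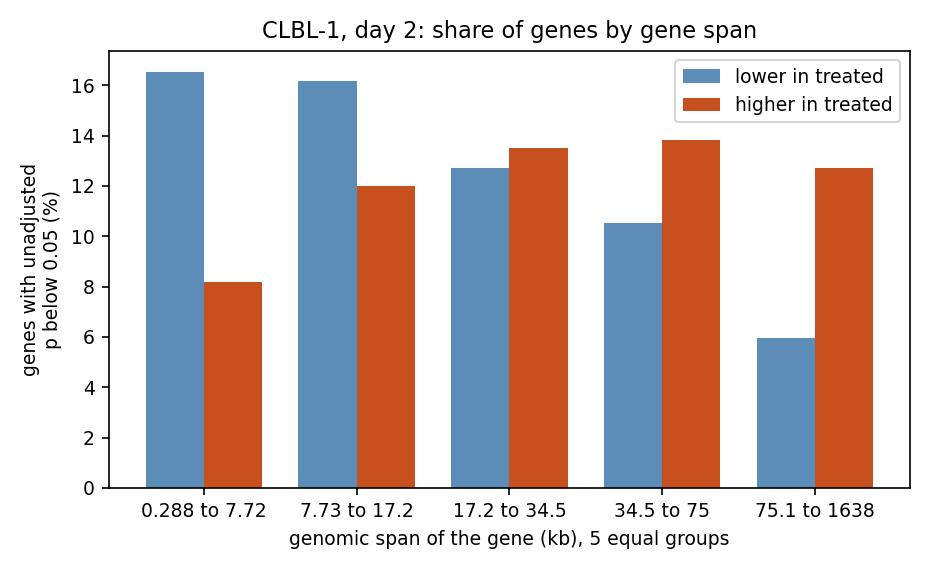
Share of genes (%) above the median level with an unadjusted p below 0.05, in 5 groups of genomic span (kb), lower (blue) or higher (orange) in treated CLBL-1 cells. The share lower drops from 16.5% to 5.97% across the groups, and the share higher is lowest in the shortest at 8.19%.

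The probe sets called in CLBL-1 were then read in 17-71, whose arrays had no part in choosing them. Line and day (2 against 4) cannot be told apart here. Of the 40 falls 38 were negative in 17-71 too, where 47.9% of all probe sets were negative, and 25 were lower there at an unadjusted p below 0.05, against 4.93% of all probe sets. As 3 unnamed falls hold identical values, the distinct counts are 36 of 38 and 23. Only 1 of the falls lay below the median level in CLBL-1. The shares in 17-71 were not computed for probe sets above that level, so these backgrounds are not matched for level. None of the probe sets called in CLBL-1 passed the adjusted threshold in 17-71 (limma, smallest adjusted p = 0.389, for AFMID among others). The median log2 change of the 40 was -1.25 in CLBL-1 and -0.38 in 17-71. AFMID went from 8.55 and 8.48 in the 17-71 controls to 7.51, 7.57 and 7.61 in the treated arrays, with no overlap. AP1G2, at -0.83, came closest to its CLBL-1 change (-1.11) among the named falls. IDNK was below the median probe set in 17-71, at 1.61 and 1.77 in control. None of the 3 rises was past the unadjusted level in 17-71, where TMEM178B read 0.38, CFAP53 0.09 and PRPF39 -0.13.

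In the joint fit of both lines the difference between the responses passed for 5 of the 43 (adjusted p below 0.05 over all probe sets, where 0.0309% passed). Because the 43 were chosen for large changes in CLBL-1, these differences lean towards a larger CLBL-1 response. PRPF39 read 6.01 and 5.80 in the 17-71 controls and 5.87, 5.87 and 5.58 in its treated arrays, where the groups overlapped, and the difference was 1.67 (SE 0.18, adjusted p = 0.0401). CYB561A3 started higher in 17-71, at 10.46 and 10.42, and read 9.79, 9.76 and 9.96 in treated cells, a difference of -1.66 (SE 0.121, adjusted p = 0.0158). For IDH3G the 17-71 groups overlapped, with 6.67 and 6.87 in control and 6.55, 6.72 and 6.62 in treated cells (difference -1.31, adjusted p = 0.0401). PRR11 differed by -1.09 (adjusted p = 0.0428) and RNASEH2C by -1.09 (adjusted p = 0.0401). Without any single array of the 10 the difference passed for 0 or 1 of the 43, and the trend fit called 34 of the 43.

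**Figure D5:**
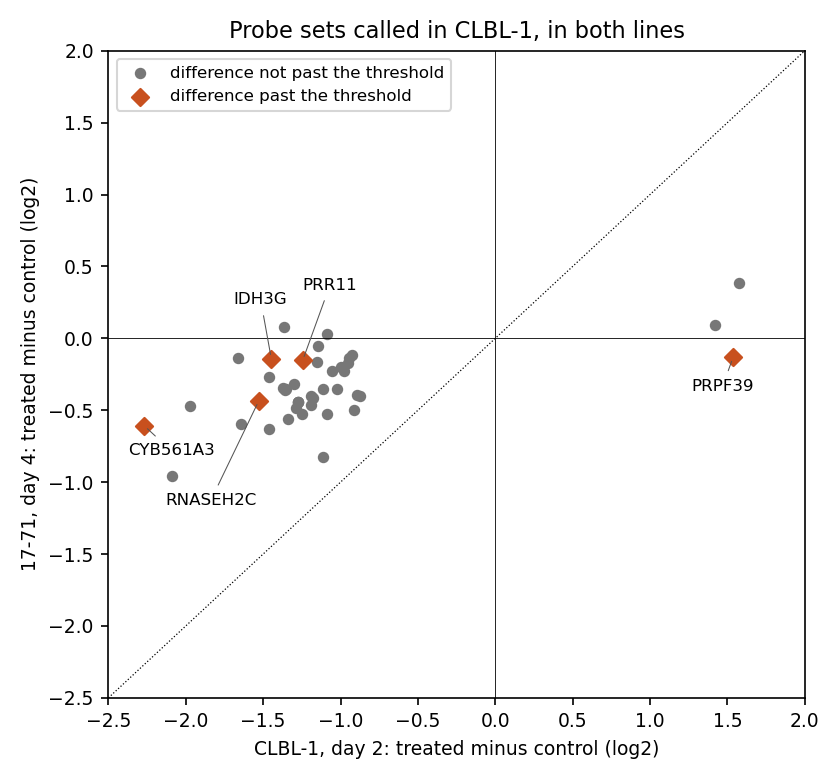
Change (treated minus control, log2) of the 43 probe sets called in CLBL-1, in CLBL-1 at day 2 (horizontal) and in 17-71 at day 4 (vertical), with a dotted line of equal change. The 5 diamonds have a difference past the adjusted threshold, and the falls have medians of -1.25 and -0.38.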

How the data were processed

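The authors deposited RMA log2 expression values per probe set from Affymetrix CanGene 1.0 ST arrays (the processing notes also name limma and Affymetrix Expression Console, without versions). RMA corrects background, equalises array distributions and summarises probes, so a change in total RNA per cell cannot appear, and isoforms of a gene are not told apart. Whether both lines were normalised in 1 run is not given in the sources used here. Arrays have no read depth, and their number limits the precision.

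The 5 CLBL-1 arrays were fitted alone with limma 3.58.1 in R 4.3.3 (lmFit, eBayes, two-sided, residual df 3, Benjamini-Hochberg over 32391 probe sets, threshold 0.05). The difference from 17-71 came from a joint fit of all 10 arrays. The platform annotation gave 1 symbol to 16545 probe sets, several to 370 and none to 15476, and 15820 were found in RefSeq. For the 516 genes with several probe sets, the one with the highest mean over the 5 arrays was used.

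Named genes were PRMT5, MYC, the PRMT and methylosome lists, all single-symbol calls, the 20 nearest outside the threshold per direction with separated groups, and up to 4 members with the smallest p per list. CD79B and other cell type markers come from the marker lists. The comparison, the 64 lists and the markers were chosen with earlier results of these data known. Alternatives were the joint fit, an intensity trend with robust variances, quantile and loess normalisation, a filter on level, array weights, repeated probe sets left out, a replicate block and each array left out. The code was tested on simulated data. Promoter motifs were not analysed here.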

Additional observations from a re-analysis of the deposited data

Results flagged for a closer look

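Among the 43 probe sets called in CLBL-1 at day 2, 5 differed in response from 17-71 at day 4 (limma interaction, adjusted p below 0.05). Over all 32391 probe sets 10 passed that test. The 43 were chosen for large changes in CLBL-1, so these differences lean towards a larger CLBL-1 response. The log2 difference, CLBL-1 minus 17-71, was -1.66 for CYB561A3, -1.09 for RNASEH2C, -1.31 for IDH3G, -1.09 for PRR11 and 1.67 for PRPF39. The groups of both lines were too small (2 or 3 arrays) for single arrays to be screened as outlying.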

How the results depend on the processing

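Against 43 calls in CLBL-1, quantile normalisation gave 34, loess 36, array weights 33 and leaving out 1573 repeated probe sets 49. Fitting both lines together (10 arrays) gave 607, an intensity trend with robust variances 1310 and the 16195 probe sets above the median level 1002. Leaving out any 1 array gave 0 to 0, while the count at an unadjusted p below 0.05 was 3591 to 3795 (4444 with all arrays). A replicate block gave 0 calls (smallest adjusted p = 0.467), and 3193 at the unadjusted level. Over all probe sets, deviations of same-numbered arrays from their group means had r = -0.022 and -0.026. With 2 treated arrays these deviations mirror each other, so the check cannot tell whether same-numbered cultures were matched. The 32 named calls all kept their direction in every alternative, and 29 passed under quantile, 31 under loess and 28 under array weights. Every alternative reused arrays on which these calls were chosen. For the difference from 17-71 (5 of 43), quantile normalisation gave 2, loess 7, the intensity trend 34, the probe sets above the median level 34 (of 40 tested), the replicate block 0 and leaving out 1 array 0 to 1. List medians moved beyond the spread of the controls in 17 to 30 of 64 lists when 1 array was left out (30 without treated replicate 2), 11 under quantile, 16 under loess and 11 with genes above the median level. They changed sign in 1 to 7 lists when 1 array was left out or values were renormalised or filtered, except that averaging probe sets changed 0. The causes were not tested. With 2 treated arrays and 3 residual degrees of freedom, the smallest change called was -0.87 (CROT).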

Other observations

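Several other gene groups of CLBL-1 held single genes with sizeable changes, none past the adjusted threshold. In the PI3K, AKT and mTOR list 5 of 32 genes were higher and 5 lower at an unadjusted p below 0.05, with the kinase AKT2 at -0.94, its downstream target TSC2, a brake on mTORC1, at -0.98 and the S6 kinase RPS6KB2 at -0.77. In the HSP70 and HSP90 system the ubiquitin ligase STUB1 read 6.63, 6.83 and 6.83 in control and 4.93 and 5.59 in treated arrays (log2 change -1.50, SE 0.209, adjusted p = 0.0907), while 5 of 27 members were higher, among them HSPH1 (0.35). ER chaperones had 5 of 26 lower, with CALR at -0.49, and 1 higher. Plasma cell genes had 3 of 14 higher, with JCHAIN, the joining chain of IgM and IgA, at 0.49 and MZB1 at 0.47, and 1 lower. Transcription factors of the B lineage and the germinal centre had 0 higher and 2 lower of 24.

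Among apoptosis genes CASP2 read 0.43, the BH3-only protein BMF -0.54 and BID -0.45. In excision and mismatch repair 6 of 37 were higher and 5 lower, with the endonuclease APEX2 at -0.85. In end joining and damage signalling TIMELESS read -0.83 and XRCC5 (Ku80) 0.46. Of 40 histone and DNA methylation enzymes 4 were higher and 6 lower, with KDM3A at 0.38 and DNMT1 at -0.26, whose second probe set read -0.0011. In the SWI/SNF list BRD7 read 0.43 and SMARCC2 -0.45. COQ7 of coenzyme Q synthesis read 0.70, and QARS1, the glutamine tRNA synthetase, -0.56.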
